A study of Helianthus annuus with 8 samples.

Results

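The comparison set leaf 15 of field-grown sunflower under water deficit against the same leaf of irrigated control plants, on 1-colour (Cy3) Agilent oligonucleotide arrays. It was read over the 28959 of 40243 non-control probes that the scanner software marked as well above background on both arrays of at least one of the compared groups. All plants were of one commercial sunflower hybrid. Those of the water deficit group were kept under a mild soil water deficit, imposed before flowering with a mesh that kept rain out of the soil. There were 2 water deficit arrays labelled 45 days and 2 control arrays of the same labelled age. Another 3 control arrays labelled 50 days and 1 head excision array, also at 50 days, complete the 8 arrays of the series. Here the 50-day controls show how far untreated leaves lie from one another and give reference levels for named probes. They also enter the estimate of the spread in the fit over all 8 arrays. The methods give leaf 15 a slightly greater age than the labels do. The groups stand for field plants of one hybrid in one season, and each field replicate pooled plants of one plot in a block design per the methods. The labels call the 2 arrays of a group replicates without saying which plots or blocks they came from, so p-values measure the spread between these samples.

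Leaves that run short of water close their stomata, slow photosynthesis and take up a protective gene programme, and in sunflower a deficit around flowering is known to bring leaf senescence forward. Senescing leaves break down chloroplast proteins and membranes and export the nitrogen and carbon to the growing head. The array used here was built from expressed sequence tags assembled into contigs (several tags) and singletons (one tag), together called unigenes and named HeAn_C or HeAn_S with a number. HeAn_B marks a further name class that was not explained in the sources used here. The files pair no gene name with any probe, so the leaf identity could not be checked against photosynthesis markers, and results are given by unigene, with a Gene Ontology (GO) term where the study's annotation table held one.

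Single probes differed by up to 344-fold between water deficit and control, while most differed by less than 2-fold. On the deposited log2 scale, where 1 unit is a 2-fold change, the median difference (water deficit minus control) over the 27219 probes that all 4 arrays detected well above background was −0.05. The middle of the distribution ran from −0.38 to 0.32 (lower and upper quartile), and 5% of the probes lay below −1.03 and 5% above 1.16. The extremes were −5.44 and 8.43. More than 2-fold higher in water deficit were 1748 of these probes (6.42%), and more than 2-fold lower were 1451 (5.33%). Beyond 4-fold the counts were 369 higher and 232 lower, and beyond 16-fold they were 21 higher and 14 lower. With the median spot signal in place of the processed signal, 960 probes were more than 2-fold higher and 740 lower. For 7779 probes (28.6%) both water deficit arrays lay above both control arrays, and for 9075 (33.3%) both lay below, so that non-overlap by itself was common.

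Probes beyond 2-fold were found at every level of signal. Among the 3954 probes with a mean log2 value below 6, 4.86% were more than 2-fold higher in water deficit and 5.69% lower. The shares were 7.69% higher and 5.95% lower among the 6466 probes between 6 and 8. Among the 1021 brightest probes, above 14, they were 3.82% higher and 4.21% lower. Of the probes beyond 16-fold, 12 of the 21 that were higher and 8 of the 14 that were lower had a mean value between 8 and 10. None lay below 6 or above 14. The mean is taken over the same 4 arrays as the difference, and a gap of that size between detected values keeps it away from both ends of the scale. Their place on the scale thus follows in part from how level was defined. Contigs were more often members than singletons, with 86.5% of 12669 contig probes against 65% of 23619 singleton probes. Their median level on the 4 arrays was 9.80 for contigs and 8.21 for singletons.

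The spread between arrays sets the scale for these differences. The median absolute difference between 2 arrays over the 27219 probes was 0.20 log2 units between the water deficit arrays and 0.26 between the controls of the same age. The pairs of 50-day controls differed by 0.22 to 0.27. Each of the 4 pairs of a water deficit array with a 45-day control array differed by more than that, from 0.33 to 0.44. Untreated pairs of a 45-day with a 50-day control, which differ in age and slide, lay 0.30 to 0.41 apart, a range that overlaps it. Control replicate 1 lay farther from the water deficit arrays (0.40 and 0.44) than control replicate 2 did (0.33 and 0.36). The share of probes more than 2-fold apart was 2.78% between the water deficit arrays, 6.5% between the controls, and 4.54 to 6.99% between 50-day controls. It was 8.67 to 19.5% between a water deficit array and a 45-day control, and 9.16 to 16.8% between a 45-day and a 50-day control.

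The array features behind the values also differed between the groups. The median processed signal before normalization was 144 and 145 intensity units on the water deficit arrays, against 108 and 89.1 units on the controls. On the water deficit arrays, 73.4% and 72.5% of the spots were well above background, against 70.9% and 69.8% on the controls, and no spot was saturated. All 4 arrays lay on one slide, with water deficit at positions 3 and 4 and the controls at positions 1 and 2, so that position on the slide and treatment cannot be told apart. The deposited medians lay within rounding of one another (7.04 to 7.05), and the part of these signal differences in the results was not tested.

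With limma and the spread shared over all 8 arrays, 563 of 40243 probes (1.4%) rose in water deficit and 199 (0.494%) fell at a Benjamini-Hochberg adjusted p below 0.05. Of these calls 657 were among the 28959 members, and the other 105 were on probes too dim to be members. Fitted over the members alone, 1246 rose and 569 fell, and with the median spot signal the counts over all probes were 1324 and 537. With the replicate number as a block, 0 were called in either direction. All 762 had groups that did not overlap, and 570 differed by more than 2-fold. On the 4 arrays alone, limma called 0 of all 40243 probes (0%) at that threshold, the smallest adjusted p being 0.133. Over the members alone it called 214 (177 higher and 37 lower). Membership uses the compared groups: 690 members were detected on both water deficit arrays and no control, and 74 the reverse. Counts of calls over the members alone therefore carry that selection and are no support for the other calls. At an unadjusted p below 0.01 the 4-array fit of all probes held 1681 higher (4.18%) and 967 lower probes (2.4%), among them all 762. At an unadjusted p below 0.05 it held 8948. The fit with the shared spread also draws on the 50-day arrays, which lay on the other slide.

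The balance of the calls depended on single arrays. Without water deficit replicate 1 there were 403 higher and 100 lower calls, and without water deficit replicate 2 there were 210 higher and 20 lower calls. Without control replicate 1 the order turned, with 110 higher and 166 lower calls. Without control replicate 2 there were 377 higher and 344 lower calls.

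Of the 27219 probes detected on every one of the 4 arrays, 394 rose, by a median of 1.35 log2 units (2.54-fold), and 156 fell, by a median of 2.03-fold. More than 2-fold were 289 of the rises and 86 of the falls. The rises ranged from 0.57 to 8.43 log2 units and the falls from −0.56 to −4.72. The widest difference downward, −5.44, was not among the calls.

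The largest rise belonged to HeAn_B_41838, with log2 values of 15.03 and 15.98 on the water deficit arrays, against 6.37 and 7.79 on the controls. The difference of 8.43 ± 0.54 (SE), or 344-fold, had a limma adjusted p of 0.015 with the spread shared and 0.13 on the 4 arrays alone. In the 50-day controls the probe stood at 6.16 to 6.49, close to the lower of its 45-day controls.

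HeAn_S_34651 read 12.30 and 14.42 on the water deficit arrays, against 5.14 and 6.35 on the controls, a difference of 7.61 ± 0.77 (limma adjusted p 0.03). HeAn_C_1132 read 11.69 and 13.03 in water deficit, against 5.39 and 5.54 in control, a difference of 6.89 ± 0.57 (adjusted p 0.02). In both, the gap between the groups was wider than the spread within either, which their choice among the largest called rises favours. With the median spot signal, to which an offset was added that draws dim values together, all 10 of the largest rises kept their call but were smaller: 183-fold for HeAn_B_41838, 59.2-fold for HeAn_S_34651 and 27.6-fold for HeAn_C_1132, down to 3.37-fold for HeAn_C_1712. The next were HeAn_S_26857 (5.23 ± 0.78) and HeAn_S_29201 (5.21 ± 0.51), the adjusted p of HeAn_S_26857 being 0.049, near the threshold.

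A gene annotated to transcription, HeAn_S_25614, was the seventh largest rise. It read 10.30 and 11.27 on the water deficit arrays, against 5.30 and 6.75 on the controls, a 27.0-fold difference with a limma adjusted p of 0.04. Its 50-day controls read 4.48 to 5.15. HeAn_S_27276 (4.91), HeAn_C_11600 (4.70), HeAn_S_27285 (4.51) and HeAn_C_1712 (4.23) closed the list of 10. HeAn_C_11600 stayed below the detection limit in the 50-day controls, where it read 2.34 to 3.10. HeAn_S_27285 differed from the other 9 in that its 50-day controls, 7.72 to 8.71, lay above its 45-day controls, 6.21 and 7.10. Its water deficit values, 11.10 and 11.23, were above both. In all 10 rises replicate 2 read higher than replicate 1 in both groups, by 0.13 to 2.12 log2 units in water deficit and by 0.15 to 1.82 in control.

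HeAn_C_1427 had the largest fall, with 6.27 and 5.63 on the water deficit arrays against 11.73 and 9.62 on the controls. The difference was −4.72 ± 0.70, or 26.4-fold lower, with a limma adjusted p of 0.049 (0.15 on the 4 arrays alone). The 50-day controls read 12.96 to 13.44, above both 45-day controls. With the median spot signal HeAn_C_1427 was 9.67-fold lower.

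The next 5 falls had almost the same values. They were HeAn_S_31969, HeAn_C_9151, CUST_41065_PI423492394 and CUST_40976_PI423492394, the last 2 without a unigene name, and CUST_46_PI422561325, one of the 74 sunflower control probes spotted 10 times. On water deficit replicate 1 the 5 probes read 11.30 to 11.49, and on replicate 2 they read 10.67 to 11.03. On control replicates 1 and 2 they read 15.21 to 15.46 and 14.38 to 14.71. Their differences, −3.69 to −3.98, were 12.9-fold to 15.8-fold falls with limma adjusted p of 0.03 to 0.042. That they lay within 0.53 log2 units of one another on every array was noticed after the values were seen. Probes to overlapping tags of one transcript would read alike, and no probe sequence was used here, so whether they stand for 5 genes was not tested.

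HeAn_S_30420 (7.31 and 7.29 in water deficit, against 11.04 and 9.74 in control), HeAn_C_536, HeAn_C_1553 and HeAn_S_34087 followed, with differences of −3.09, −2.93, −2.90 and −2.80. In all 10 falls both water deficit arrays lay below both 45-day controls, which held for every call downward and so follows from the selection. Both also lay below all 3 of the 50-day controls in all 10. The choice of large falls favours this too, and the share of all probes that did so was not counted.

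Some called probes lay at the top of the signal scale. The brightest probe that rose, HeAn_C_8855, read 15.87 and 16.07 on the water deficit arrays, against 14.50 and 14.69 on the controls, a difference of 1.37 ± 0.15 (limma adjusted p 0.033). HeAn_B_41030 and HeAn_C_11129 rose by 0.88 and 0.86. Of the brightest that fell, HeAn_S_26743 differed by −2.63 and HeAn_C_9802 by −2.60, and HeAn_C_3163 read 13.90 and 13.79 in water deficit, against 14.72 and 14.97 in control. HeAn_S_26743 read 12.92 and 12.45 in water deficit, against 15.67 and 14.96 in control, while HeAn_C_9802 read close to it on each of these arrays.

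Some members were above background in one treatment only, which is what the selection allowed, so their direction is not a finding. There were 690 probes well above background on both water deficit arrays and neither control, and 74 for the opposite case. A further 753 were so on both water deficit arrays and 1 control, and 223 on both controls and 1 water deficit array. The lowest log2 value that was still detected was 3.22 and 3.38 on the water deficit arrays, against 3.76 and 3.98 on the controls, so that a given log2 value near these limits was detected more readily in water deficit. Where a group was dim, only a lower bound of the fold on the deposited scale can be given. It was taken against the higher of that probe's own value and the lowest detected value on each array. The bound does not hold for the median spot signal, with which folds can be smaller. The bound exceeded 2-fold for 166 of the 690 probes and for 61 of the 74. The higher detection limits of the controls favour larger bounds for the 74, so these shares cannot be compared.

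HeAn_C_1702 read 8.04 and 10.52 on the water deficit arrays, and 1.03 and 1.05 on the controls, where it was not well above background. On the deposited scale the bound was 42.5-fold higher, but 17.9-fold without water deficit replicate 2 and 100-fold without replicate 1. For HeAn_S_36540 the bound was 30.1-fold (17.6-fold and 51.5-fold) and for HeAn_C_1814 it was 26.6-fold (13.8-fold and 51.1-fold). With the median spot signal and its offset these 3 were 4.62-fold to 6.92-fold higher, and HeAn_C_1702 lost its call (limma adjusted p 0.058). None of them was detected in the 50-day controls either. In the other direction, HeAn_C_11048 was not well above background in water deficit (2.07 and 1.07), and read 7.51 and 7.83 in the controls and 9.79 to 10.25 in the 50-day controls. The bound was 20.7-fold lower for HeAn_C_11048, 5.65-fold for HeAn_S_37201 and 5.56-fold for HeAn_S_36921. With the median spot signal they were 2.88-fold, 1.45-fold and 1.55-fold lower, and HeAn_S_36921 lost its call (limma adjusted p 0.061).

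GO terms could be attached to 463 measured unigenes, a stretch of consecutive singleton names and not a sample of the array. Of these, 354 were members and 328 were above background on all 4 arrays, with a median difference of 0.03. The spread-shared fit called 13 of the 463 higher (2.81%) and 1 lower (0.216%), against 1.4% and 0.494% of all probes.

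Both measured unigenes of glycerol-3-phosphate metabolism rose. They are annotated as NAD-dependent glycerol-3-phosphate dehydrogenase, the enzyme that interconverts dihydroxyacetone phosphate and the glycerol-3-phosphate that forms the backbone of membrane lipids. HeAn_S_25136 read 5.82 and 5.84 on the water deficit arrays, against 4.09 and 4.31 on the controls (1.62 ± 0.11, limma adjusted p 0.015). HeAn_S_25135 read 10.31 and 10.48 in water deficit, against 9.54 and 9.54 in control (0.86 ± 0.09, adjusted p 0.033).

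Both measured unigenes of tryptophan metabolism rose as well. Their terms name a carbon-oxygen hydro-lyase that binds pyridoxal phosphate. HeAn_S_25433 read 10.35 and 10.25 in water deficit, against 8.98 and 8.99 in control (1.31 ± 0.10, limma adjusted p 0.018), and HeAn_S_25434 differed by 1.25 ± 0.17 (adjusted p 0.043). The 2 controls of each of HeAn_S_25433 and HeAn_S_25434 were nearly equal, and at 50 days the controls read lower, at 7.59 to 7.75 and 4.04 to 4.44. Unigenes with adjacent names and equal terms may be parts of one transcript, here and in the other pairs, so a pair is not a pair of independent observations.

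All 4 measured unigenes with the term carbon-oxygen lyase activity acting on phosphates stood higher in water deficit without overlap, though only 1 passed the test. The class holds terpene synthases. Non-overlap upward was also met by 28.6% of all probes detected on all 4 arrays, a set that held 2 of these 4 unigenes. The 4 unigenes form pairs with adjacent names, and the term was singled out after its values were seen. HeAn_S_25661, also annotated to plastid and to response to stress, read 11.74 and 12.07 in water deficit, against 7.94 and 9.41 in control (3.23 ± 0.52, limma adjusted p 0.054). HeAn_S_25376 differed by 2.87 (adjusted p 0.08) and HeAn_S_25377, detected on 1 control, by 2.82 (adjusted p 0.14). HeAn_S_25662 passed (adjusted p 0.042) but was not well above background in the controls, so that the fold has only a lower bound, of 1.4. In each of the 4 unigenes control replicate 2 read 1.0 log2 units or more above control replicate 1, nearer to water deficit.

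Of the 4 measured unigenes of lignin metabolism, 1 rose. It was HeAn_S_25935, also annotated to copper binding, the extracellular region and oxidation of diphenols, terms that laccases carry. HeAn_S_25935 read 6.95 and 8.00 on the water deficit arrays, against 3.39 and 4.29 on the controls, of which 1 was well above background (3.64 ± 0.49, limma adjusted p 0.043). It was dim in all 50-day controls (0.95 to 1.67). HeAn_S_25936 was detected in water deficit only, with a lower bound of 1.05-fold (adjusted p 0.058). HeAn_S_25294 was dim on every array, and HeAn_S_25564 differed by −0.56.

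The other annotated calls were scattered over functions. HeAn_S_25718, of DNA metabolism, read 9.26 and 9.25 in water deficit against 7.14 and 7.33 in control (2.02). HeAn_S_25830, an oxidoreductase acting on aldehyde or oxo groups, differed by 1.95, and a Golgi glycosyltransferase, HeAn_S_25709, by 0.98. HeAn_S_25218, an integral membrane protein, differed by 0.77 and HeAn_S_25628, a membrane transferase, by 0.75. The remaining calls, 1 higher (HeAn_S_25633, acid phosphatase) and the only lower one (HeAn_S_25603, transcription and translation), were on probes below background on all 4 arrays, so no size is given for them.

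Of the 14 GO groups examined, 13 had 5 or more measured unigenes. The medians below are over the members above background on all 4 arrays, where the same median over all probes was −0.05. Oxidation-reduction had 3 rises and 0 falls among 32 measured unigenes and a median of 0.18 over 22, and response to stimulus or stress had 1 rise among 10 and a median of 0.32 over 8. Protein kinases (28 measured unigenes, median −0.20, from −0.99 to 1.09), transport (16), transmembrane transport (10), signal transduction (10), peptide transport (8) and proteolysis (9) had 0 limma calls. Transcription had 1 rise and 1 call lower on the dim HeAn_S_25603 among 20, carbohydrate metabolism 1 rise among 11 and plastid 1 rise among 9. The groups share unigenes. The rise of plastid and that of response to stimulus or stress are the same, HeAn_S_25662. It was not well above background in the controls, and so is not among the 8 behind that median. The rise of carbohydrate metabolism, HeAn_S_25135, was also counted under oxidation-reduction.

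For the groups with 0 calls, counts at an unadjusted limma p below 0.05 were taken over unigenes detected on all 4 arrays. Over all 27219 such probes, that p was met by 14.3% higher and 15.3% lower with the spread shared, and by 13.6% higher and 13.2% lower on the 4 arrays alone. With the spread shared, 3 kinases of 23 were higher and 2 lower, and on the 4 arrays alone 2 were higher and 3 lower. Transport had 3 higher and 1 lower of 12 in both fits, transmembrane transport 3 higher and 0 lower of 7, peptide transport 1 higher and 2 lower of 4, and proteolysis 2 higher and 0 lower of 5. Signal transduction had 2 higher and 2 lower of 7 with the spread shared, and 2 higher and 1 lower on the 4 arrays alone. Single unigenes decide such counts.

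The heme binding group had the lowest median, −0.95 over 7 members, with 0 limma calls among 10 measured unigenes. At an unadjusted p below 0.05, 0 of the 7 were higher and 5 lower with the spread shared, and 1 was higher and 4 lower on the 4 arrays alone. For 6 of the 7 both water deficit arrays lay below both controls, and for 1 both lay above, where the shares over all probes were 33.3% and 28.6%. Among the lower ones HeAn_S_25774 and HeAn_S_25775 have adjacent names, as do HeAn_S_25171 and HeAn_S_25172. Such pairs may be parts of one transcript, so the 7 are not independent observations. The largest difference belonged to HeAn_S_25774, with 10.07 and 9.73 in water deficit against 11.84 and 11.45 in control (−1.75, limma adjusted p 0.066). HeAn_S_25171 read 7.49 and 7.40 in water deficit, against 8.57 and 8.48 in control (−1.08, adjusted p 0.088). The exception was HeAn_S_25272, at 0.40. Heme proteins of leaves include the cytochrome P450 monooxygenases and peroxidases.

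Within tRNA aminoacylation, which loads amino acids onto their tRNAs for protein synthesis, 0 of 5 unigenes were called by limma. At an unadjusted p below 0.05, 1 was higher and 2 lower with the spread shared, and 0 were higher and 2 lower on the 4 arrays alone. The 2 alanine-tRNA ligase unigenes were lower on both water deficit arrays. HeAn_S_25594, annotated to plastid among other terms, read 10.00 and 9.83 in water deficit against 10.99 and 11.58 in control (−1.37, limma adjusted p 0.052), and HeAn_S_25911 read 7.65 and 7.67 in water deficit against 8.59 and 8.41 in control (−0.84, adjusted p 0.053). The 2 serine-tRNA ligase unigenes differed by 0.42 and 0.00.

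Of 8 oligopeptide transport unigenes, 4 were above background on all 4 arrays and 0 were called. HeAn_S_25449 was lower in water deficit, 12.07 and 12.35 against 13.00 and 12.85 in control (−0.72, limma adjusted p 0.1), while HeAn_S_25497 was higher in water deficit, 7.80 and 7.77 against 6.66 and 7.07 in control (0.92, adjusted p 0.054). The widest difference among transport unigenes detected on all 4 arrays was that of HeAn_S_25816, with 7.90 and 8.28 on the water deficit arrays against 5.07 and 6.11 on the controls (2.51, adjusted p 0.076).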

How the data were processed

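Per the labels, RNA of each leaf sample was labelled with Cy3 and hybridized to one array. The authors deposited the scanner files, with each spot's intensity after background subtraction by Agilent Feature Extraction (version 10.7.1.1 in the headers), and a table of log2 values for 40243 probes. How that table was normalized is not stated in it. The processed scanner signals were also background-corrected (normexp, offset 1) and quantile-normalized here, the steps that the methods name. Each deposited column followed the values so obtained for its own array (Pearson's r across probes of 0.9998 for the controls at 45 days). The deposited log2 values were fitted with limma 3.58.1 (lmFit, contrasts.fit, eBayes) in R 4.3.3. The fit had a mean for each of the 4 groups of all 8 arrays, and was repeated on the 4 arrays at 45 days. P-values, two-sided, were adjusted by Benjamini-Hochberg over all 40243 probes. Control spots were left out and repeated spots averaged. The fits were tested on simulated data.

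Probe names carry no unigene. The first 1998 rows of a supplementary table each paired with exactly 1 probe, its fold and statistic serving only as a key. The shift between unigene and probe number was then constant over long stretches: in 1790 of 1790 contig and singleton entries whose neighbours shared a shift, the entry had it too. Probes between such neighbours were named on that basis (36360 in all). No probe ID matched the reference gene table. The GO table was used in its first part only, so that no set test was run.

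The members, lists and tests were chosen with earlier results of these data known. Named are the 10 largest rises and falls and the 3 brightest per direction among called probes above background on all 4 arrays, the 3 largest bounds per direction among called probes detected in one group, called annotated unigenes, and members of the GO groups. Single GO terms and the 5 similar falls were singled out after their values were seen. Alternatives covered the signal used, its scaling, a filter on dim probes, trended eBayes, the replicate number as a block, the 4 arrays alone and each array left out. The number of arrays limits the precision.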

Additional observations from a re-analysis of the deposited data

Results flagged for a closer look

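For 5 of the 10 largest rises under water deficit, the single head excision array at 50 days, which enters no comparison, stood more than 1 log2 unit above the highest of the 3 untreated controls of that age. HeAn_C_1132 read 7.97 after head excision, against 4.24 to 5.41 in the controls. HeAn_S_26857 read 7.95, against 3.40 to 4.39 in the controls, and HeAn_S_29201 read 8.56, against 5.10 to 6.26 in the controls. The transcription unigene HeAn_S_25614 read 7.61, against 4.48 to 5.15 in the controls. HeAn_C_11600 read 5.30, against 2.34 to 3.10 in the controls, of which none was well above background. There was 1 head excision array, so the difference was not tested. How many of all probes met that margin was not counted, so 5 of 10 cannot be read as more than usual.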

How the results depend on the processing

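With the spread shared over 8 arrays (563 higher, 199 lower), the median spot signal (offset 50, quantile) gave 1324 higher and 537 lower calls and a median difference of −0.0246. Fitting only probes well above background on both arrays of a group gave 1246 and 569, and on the 4 arrays alone 214 calls (177 higher, 37 lower). That filter leaves fewer probes to test and selects them through the compared groups themselves. The 4 arrays alone gave 0 and 0. The cause of these changes was not tested. Leaving out one array gave 110 to 403 higher and 20 to 344 lower calls, 0 calls on the 4 arrays alone, and a median of −0.046 to −0.0353. A group left with 1 array was then assumed to vary like the others. Other scalings and trended eBayes stayed within 1.5 times, at 464 to 700 higher and 143 to 273 lower.

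With the replicate number as a block, 0 probes were called higher and 0 lower. Same-numbered arrays deviated together (Pearson's r of 0.289 across 27219 probes of replicate 2 minus replicate 1, in water deficit and in control), and the methods describe a block design, but no source ties the replicate numbers to its blocks. With 2 pairs, the numbers were not taken as pairs.

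Of the 11 alternatives, only another signal or scaling could turn the direction of a named probe. The filter, the trend, the block and the 4 arrays alone leave the difference as it was, and leaving out one array cannot reverse groups that do not overlap. Under the other signals and scalings none of the 32 named probes turned direction, but with the median spot signal the fold of 20 was smaller by more than 1.5 times. Those still called were 28 to 32 under other signals, scalings, the filter and the trend, 3 to 15 without one array, and 0 with the block or the 4 arrays alone. Depth here is signal over background: 10002 probes were dim on all 4 arrays.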
